A study of Mus musculus with 4 samples.

Results

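The chemokine Cxcl13, the lymphotoxins and the other genes that organize lymphoid tissue were followed in dendritic cells of the mouse colon. The group holds 8 genes, Cxcl13, Cxcr5, Ltb, Lta, Ltbr, Ccl19, Cxcl12 and Tnfsf13b, of 20637 named genes on the array, and they were found by matching RefSeq accessions to 11 of its 27191 named probes. The group was selected on the measured values of Cxcl13 and Ltb, which were lower on both knockout arrays of these data. Every genotype difference given here is therefore a description. With 1 array per group no difference has a replicate check, and no test or p-value is given for any of them.

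The study set dendritic cells of CD300a-deficient mice (KO) against those of wild-type mice (WT). CD300a is an inhibitory receptor of myeloid cells whose ligand is a lipid exposed by dying cells. The 4 groups were KO and WT mice kept specific pathogen-free (SPF), labelled female, and KO and WT mice kept germ-free (GF), labelled male. All mice were of the C57BL/6J background, no age was given, and the cells of 5 mice went into each condition. Dendritic cells were sorted from the lamina propria, the connective tissue under the gut epithelium, and their total RNA was amplified as cDNA, labelled with Cy3 and hybridised to 1-colour Agilent arrays.

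Lymphotoxin is made by lymphocytes and lymphoid tissue inducer cells. The lymphotoxin alpha and beta chains, encoded by Lta and Ltb, form a membrane complex that binds the lymphotoxin beta receptor, Ltbr, on stromal and myeloid cells, and the receptor acts through the alternative NF-kappaB pathway to raise the chemokines CXCL13 and CCL19 and the B cell survival factor BAFF (Tnfsf13b). CXCL13 draws B cells and follicular helper T cells that carry CXCR5, and in the gut this circuit builds isolated lymphoid follicles.

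The 250 bases before the start of Cxcl13 and of Ltb are shown because these genes chose the group, so that a reader can see the motif match each one holds. Both windows come from RefSeq on build GRCm38.p6, on the plus strand, at chr5:95956689-95956938 for Cxcl13 and chr17:35194257-35194506 for Ltb. Capitals mark TATAAA in the Cxcl13 window and in the Ltb window a form of the NF-kappaB site, GGGA and TTCC with any 2 bases between them, which here lies on the minus strand.
Cxcl13: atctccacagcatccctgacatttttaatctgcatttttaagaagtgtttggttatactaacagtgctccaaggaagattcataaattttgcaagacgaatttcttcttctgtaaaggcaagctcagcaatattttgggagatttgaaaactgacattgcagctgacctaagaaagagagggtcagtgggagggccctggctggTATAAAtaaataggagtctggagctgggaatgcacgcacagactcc
Ltb: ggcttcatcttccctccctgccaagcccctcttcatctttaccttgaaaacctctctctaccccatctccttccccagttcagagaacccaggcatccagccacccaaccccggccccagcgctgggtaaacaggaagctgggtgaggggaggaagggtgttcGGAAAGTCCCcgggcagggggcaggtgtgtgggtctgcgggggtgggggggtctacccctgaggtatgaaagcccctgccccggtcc

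Such windows were found for 7 of the 8 genes, and Cxcr5 is named only. On both strands of windows of this length, TATAAA stood in 12.4% of 32851 RefSeq promoters, and in this group in those of Cxcl13, 46 to 41 bases before the start, and Lta, 167 to 162 bases before it. The NF-kappaB form stood in 1.21% of all promoters and, in this group, in that of Ltb 87 to 78 bases before the start. A form of the interferon response element, GAAA and GAAA with any 2 bases between them, stood in 2.98% of all promoters, in that of Ccl19 208 to 199 bases before the start and in 1 window of Tnfsf13b 16 to 7 bases before it. On the same build Cxcl13 spans chr5:95956939-95961068, and Ltb (chr17:35194507-35196305) and Lta (chr17:35203165-35205578) lie close together on chromosome 17. The searched motifs do not overlap in these windows, and a match describes letters and no more.

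Levels are given as log2 of the scanner software's processed signal relative to the 75th percentile of the same array, so that 0 marks a probe as bright as that percentile. This percentile lay at a processed signal of 157.5 for KO SPF, 165.5 for WT SPF, 206.3 for KO GF and 190.2 for WT GF cells. Between 13834 and 15084 genes were well above background on an array. The Cd300a probe read 7.91 on the KO SPF array, against 7.88 on the WT SPF array, and 8.05 on the KO GF array, against 7.60 on the WT GF array, so it was not lower on either array labelled KO. The place of the deletion relative to this probe is not known here, so the genotype labels could not be checked with it, and genotypes are used below as labelled. Xist, an RNA of the inactive X chromosome of females, read 3.62 on the KO GF array and did not clear background on the WT GF one, although both are labelled male. The GF pair thus differed in Xist as well as in genotype label, and a difference in sex between its cells cannot be told apart from genotype. Both SPF arrays shared slide 1 and scan 1 and both GF arrays slide 2 and scan 2. Slide, scan and labelled sex therefore cannot be told apart from housing, while each KO and WT pair lies on 1 slide.

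Cxcl13, the B cell chemokine of lymphoid follicles, had a processed signal of 28.7 on the KO SPF array, against 192 on the WT SPF array, and 75.8 on the KO GF array, against 174 on the WT GF array. Its levels were -2.46 in KO SPF cells, 0.22 in WT SPF cells, -1.44 in KO GF cells and -0.13 in WT GF cells. Both KO values lay below both WT values. Cxcl13 was thus 6.38-fold lower in KO than in WT cells under SPF housing (log2 difference -2.67, scanner error 0.24) and 2.48-fold lower under GF housing (log2 difference -1.31, scanner error 0.21). The scanner error covers the reading of a spot and not the spread between mice. In sorted cells read in bulk, fewer cells of a type that makes Cxcl13 and less Cxcl13 RNA per cell cannot be told apart. Of the 14905 genes above background on either SPF array, 118 had a difference as low as that of Cxcl13 or lower, counting Cxcl13 itself, and among the 15725 genes of the GF pair it ranked 542 from the lowest.

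Cxcr5, the receptor of CXCL13, was near the limit of the array. It cleared background only on the KO SPF array, with a level of -3.73 and a signal of 11.8, and was not well above it in WT SPF, KO GF and WT GF cells, with signals of 1.98, 2.90 and 8.57. It was at least 1.33-fold higher in KO than in WT cells under SPF housing, a bound set against the dimmest signal still called above background on the WT array. No fold can be given under GF housing, since both arrays lay below background.

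Ltb, the membrane-anchoring chain of lymphotoxin, had a processed signal of 38.3 on the KO SPF array, against 145 on the WT SPF array, and 39.6 on the KO GF array, against 99.5 on the WT GF array. As levels these were -2.04 in KO SPF cells, -0.19 in WT SPF cells, -2.38 in KO GF cells and -0.94 in WT GF cells. Again both KO values lay below both WT values. Ltb was 3.60-fold lower in KO than in WT cells under SPF housing (log2 difference -1.85, scanner error 0.22) and 2.72-fold lower under GF housing (log2 difference -1.45, scanner error 0.24). It ranked 355 from the lowest of all genes in the SPF pair and 400 in the GF pair.

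Lta, the other lymphotoxin chain, is read by a probe printed on 10 spots, and 3 of them were flagged and left out on the WT SPF array. It cleared background in WT GF cells only, by 6 of 10 spots, with a level of -3.82. Spots well above background numbered 1 of 10 for KO SPF, 0 of 7 for WT SPF and 2 of 10 for KO GF cells. Under GF housing Lta was at least 1.09-fold lower in KO than in WT cells, and the SD between its spots, 0.91 log2 units on the KO GF array and 0.55 on the WT GF array, is larger than the log2 of that bound. Under SPF housing both arrays lay below background and no fold can be given.

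Ltbr, the lymphotoxin beta receptor, was measured on every array. Its signals were 243 on the KO SPF array, against 399 on the WT SPF array, and 229 on the KO GF array, against 244 on the WT GF array. It was 1.57-fold lower in KO than in WT cells under SPF housing (log2 difference -0.65, level 0.62 in KO and 1.27 in WT cells). Under GF housing the difference of -0.21, between levels of 0.15 in KO cells and 0.36 in WT cells, was no larger than its scanner error of 0.21, and in the deposited table of the series it had the other sign (0.08).

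**Figure D1:**
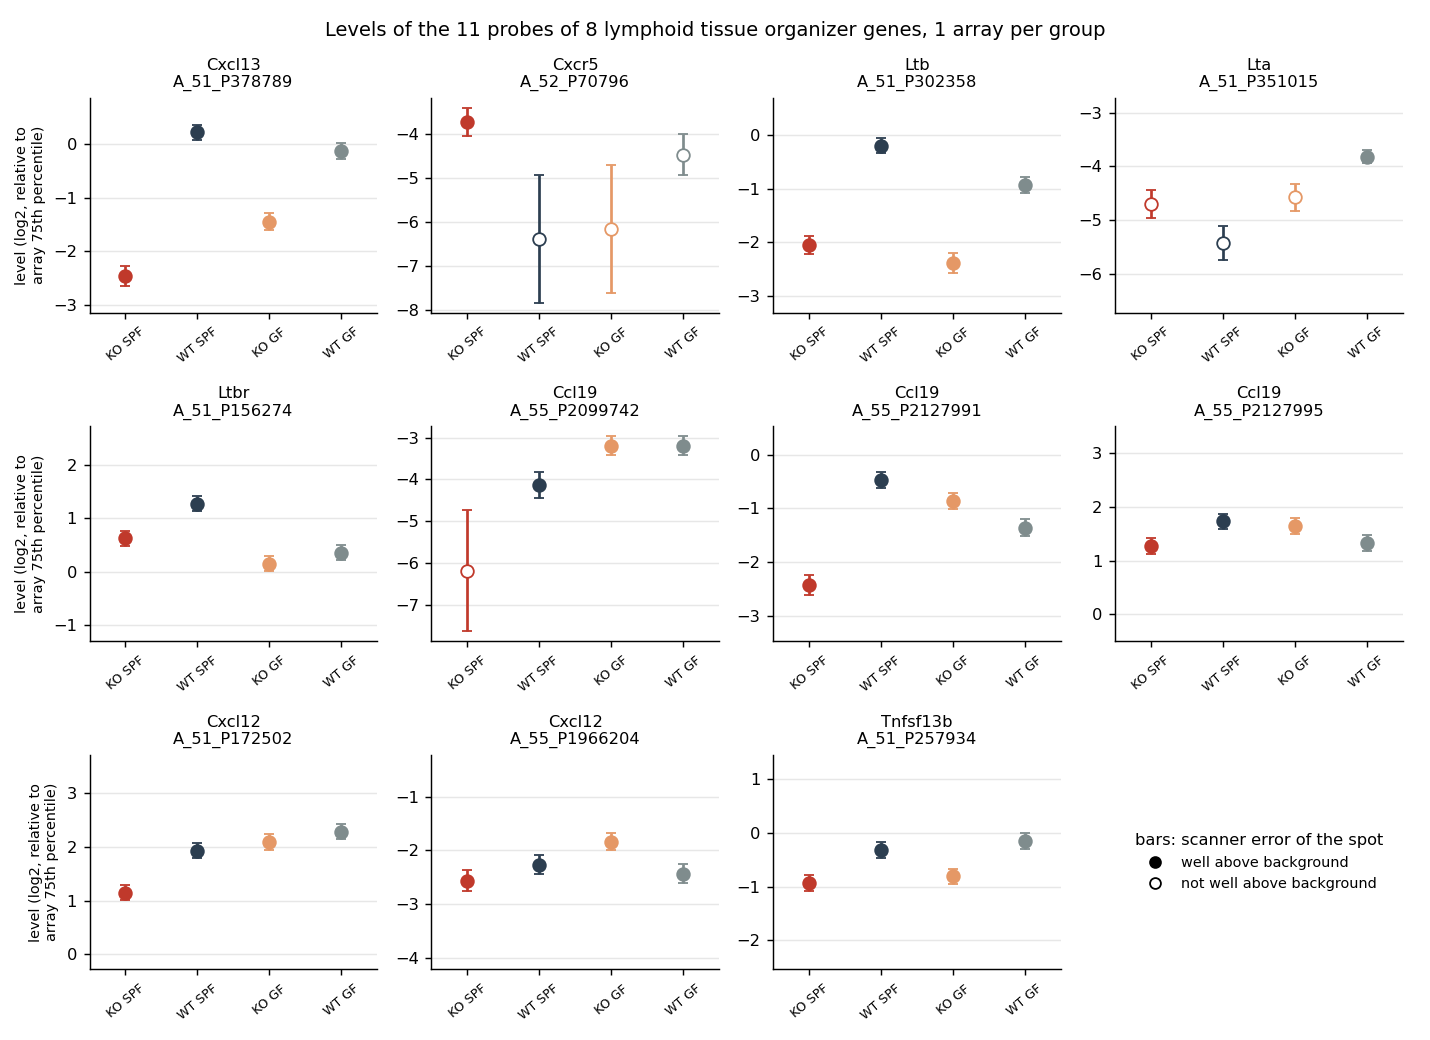
Level (log2, relative to the array's 75th percentile) of each of the 11 probes on the KO SPF, WT SPF, KO GF and WT GF arrays, 1 array per group, with bars for the scanner error of the spot and open points where the probe was not well above background. The KO points of Cxcl13 (-2.46 and -1.44) and Ltb (-2.04 and -2.38) lie below both WT points. Every probe of Ccl19 and Cxcl12 is lowest on the KO SPF array. Both brighter Ccl19 probes run, from the highest, WT SPF, KO GF, WT GF and KO SPF, while the probes of Cxcl12 differ in the order of the other arrays.

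Among the genes that lymphotoxin beta receptor signalling raises in stroma, Tnfsf13b, which encodes the B cell survival factor BAFF, had signals of 82.5 on the KO SPF array, against 132 on the WT SPF array, and 118 on the KO GF array, against 171 on the WT GF array. Both KO levels, -0.93 under SPF and -0.81 under GF housing, lay below both WT levels, -0.32 and -0.15. It was 1.53-fold lower in KO than in WT cells under SPF and 1.58-fold lower under GF housing (log2 differences -0.61 and -0.66, scanner error 0.21 each).

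Ccl19, a chemokine of the T cell zone that draws CCR7-bearing cells, is read by 3 probes that did not agree in size. The mouse genome holds near-identical copies of Ccl19, so its signals are uncertain as to the copy. The brightest probe had signals of 380 on the KO SPF array, against 549 on the WT SPF array, and 643 on the KO GF array, against 476 on the WT GF array. These give log2 differences of -0.46 under SPF and 0.32 under GF housing. The next probe had signals of 29.3 on the KO SPF array, against 119 on the WT SPF array, and 113 on the KO GF array, against 73.9 on the WT GF array. By that probe Ccl19 was 3.87-fold lower in KO than in WT cells under SPF housing (log2 difference -1.95), and the log2 difference was 0.49 under GF housing. Both probes thus had the lower value in KO cells under SPF and the higher value in KO cells under GF housing. The dimmest probe was not well above background on the KO SPF array and read -4.14 on the WT SPF array, which allows no fold. It read -3.19 on the KO GF array and -3.19 on the WT GF array.

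Cxcl12, a stromal chemokine that draws lymphocytes and plasma cells through CXCR4, is read by 2 probes to different transcripts. The brighter one had signals of 349 on the KO SPF array, against 631 on the WT SPF array, and 879 on the KO GF array, against 926 on the WT GF array. It was 1.72-fold lower in KO than in WT cells under SPF housing (log2 difference -0.78), while the GF difference of -0.19 lay within its scanner error of 0.20 and had the other sign under 5 of the 9 other processing settings. The dimmer probe had signals of 26.7 on the KO SPF array, against 34.5 on the WT SPF array, and 57.8 on the KO GF array, against 35.3 on the WT GF array, which gives log2 differences of -0.30 under SPF and 0.59 under GF housing.

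Over the group, 2 of the 7 genes measured under SPF housing were at least 2-fold lower in KO than in WT cells, against 6.62% of the 14905 genes in that comparison. These were Cxcl13 and Ltb. 1 of the 7, Cxcr5, was at least 2-fold higher on its measured values, against 5.62% of all genes. Under GF housing Cxcl13 and Ltb were again at least 2-fold lower, which is 2 of 7, against 7.78% of 15725 genes, and none was at least 2-fold higher, against 8.81% of all genes. Scaling moved the GF split of all genes, with 1386 higher and 1224 lower here, 2300 higher and 574 lower in the deposited table, and 2021 higher and 706 lower with the percentile over probes above background on all arrays. 94 of the 14234 genes measured in both pairs, or 0.660%, were at least 2-fold lower in KO cells in both, Cxcl13 and Ltb among them. These counts used the contrast that chose the group, so nothing is read from them. The median difference of the measured genes was -0.65 under SPF housing, against -0.06 for all genes, and -0.66 under GF housing, against -0.20 for all genes. Relative to those medians of all genes, Cxcl13 differed by -2.61 under SPF and -1.11 under GF housing. Taken by the smaller of the differences in both housings, Ltb (-1.45) and Cxcl13 (-1.31) ranked 4 and 10 of the 12924 genes above background on every array, and the next of the group was Tnfsf13b (-0.61) at rank 322. These ranks, too, rest on the differences that chose the group, and nothing is read from them.

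The share of genes past 2-fold depended on brightness, so that of Cxcl13 and Ltb is given too. When genes were split evenly into 4 groups by mean level, both lay in group 2 from the dim end, where 4.56% of genes under SPF and 6.03% under GF housing were at least 2-fold lower in KO cells. In the dimmest group these shares were 19.5% and 11.5%. The median difference of all genes also depended on brightness. It was 0.25 in the dimmest and -0.45 in the brightest group under GF housing, and -0.18 and -0.003 under SPF housing. Probes printed on at least 8 spots gave a measure of reading error, with a median SD between spots of 0.094 to 0.102 log2 units above background and 0.347 to 0.52 below it.

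**Figure D2:**
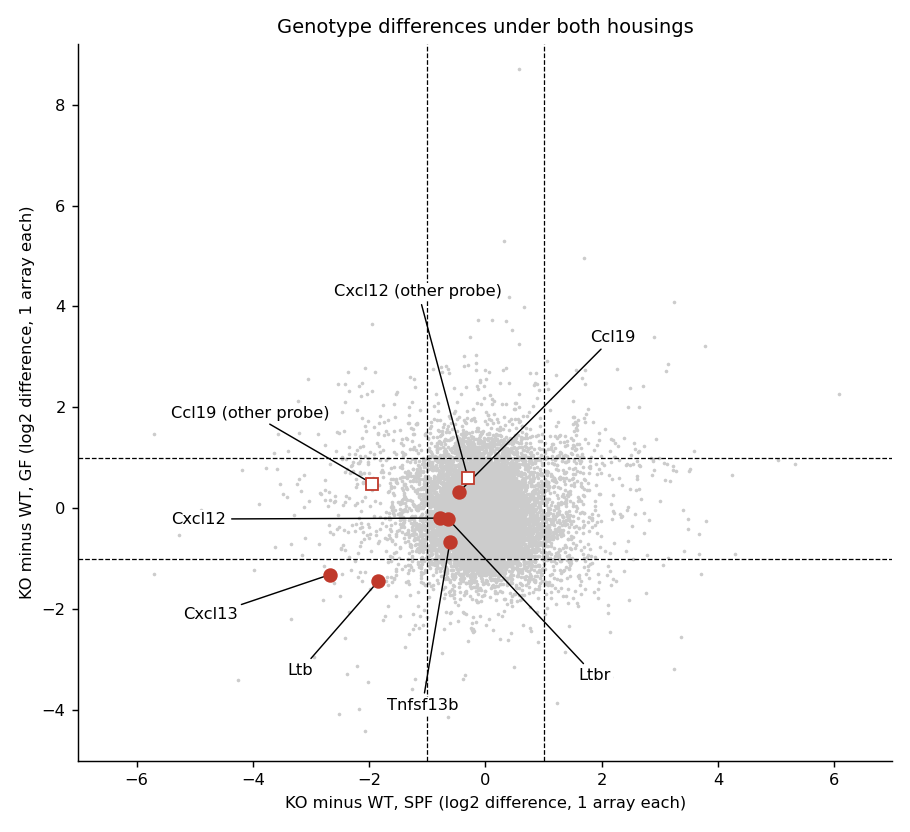
KO minus WT log2 difference under SPF housing (x axis) against the same under GF housing (y axis), 1 array each, with 14234 genes measured in both pairs in grey, the genes of the group as filled circles and further probes of Ccl19 and Cxcl12 as open squares; dashed lines mark 2-fold. Cxcl13 (-2.67 and -1.31) and Ltb (-1.85 and -1.45) are the circles beyond 2-fold on both axes.

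Housing, which the choice of the group did not use, was compared within each genotype. In KO cells Cxcl13 had a level of -1.44 under GF and -2.46 under SPF housing, and was 2.02-fold higher under GF housing (log2 difference 1.01, scanner error 0.24). That difference lay between 0.38 with normexp and 1.35 in the deposited table over 10 settings, and passed 2-fold in 7 of them. In WT cells it had -0.13 under GF and 0.22 under SPF housing, a difference of -0.35 with a scanner error of 0.21. The order of its levels from the highest was therefore WT SPF, WT GF, KO GF and KO SPF. Ltb differed by -0.34 in KO cells and by -0.74 in WT cells between GF and SPF housing, and the KO difference was 0.00 in the deposited table. Ltbr was lower under GF than under SPF housing in both genotypes, by log2 differences of -0.47 in KO and -0.91 in WT cells.

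Cxcl12 was higher under GF than under SPF housing by its brighter probe, by 0.94 in KO and 0.35 in WT cells, and by its dimmer probe it differed by 0.73 in KO and -0.17 in WT cells. Ccl19 differed by 0.37 in KO and -0.41 in WT cells by its brightest probe, and by 1.56 in KO and -0.89 in WT cells by the next one. Its dimmest probe was at least 1.58-fold higher in KO GF than in KO SPF cells. Tnfsf13b differed by 0.12 in KO and 0.17 in WT cells, within its scanner error. Cxcr5 was at least 1.16-fold lower in KO GF than in KO SPF cells, and Lta at least 1.26-fold higher in WT GF than in WT SPF cells.

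In KO cells 1 of the 7 measured genes, Cxcl13, was at least 2-fold higher under GF than under SPF housing, against 21.6% of all 15606 genes, and 1, Cxcr5, at least 2-fold lower on its measured values, against 15.4%. In WT cells 1 of 7, Lta, was at least 2-fold higher on its measured values, against 17.5% of 15679 genes, and none was at least 2-fold lower, against 9.45%. At the main setting none of these shares is above the share of all genes. The count of genes at least 2-fold higher in KO cells was 0 with normexp and 2 in the deposited table, with the percentile over probes above background on all arrays and with the median over a gene's probes. Cxcl12 (0.94 at the main setting) passed 2-fold in 4 of 10 settings and Ccl19 in 1 of 10, while Lta in WT cells passed it in 8 of 9. In KO cells 3375 of all genes were higher and 2403 lower under GF housing here, against 4625 and 1503 in the deposited table and 4028 and 1858 with the percentile over probes above background on all arrays. The median difference over the measured genes was 0.12 in KO cells, against 0.05 for all genes, and -0.35 in WT cells, against 0.13 for all genes.

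Further chemokines and receptors of lymphoid tissue did not share one direction. Of 10 such genes on the array, 7 were measured under SPF housing, with a median difference of 0.56. Of these, 2 were at least 2-fold higher in KO than in WT cells and 1, Ackr3, was lower on its measured values. Over all genes of the SPF comparison 5.62% were higher and 6.62% lower, with a median of -0.06. Under GF housing 10 were measured, 0 were higher and 2 lower, with a median of -0.29, against 8.81% higher, 7.78% lower and a median of -0.20 over all genes. Ccr7, the receptor of CCL19 that guides dendritic cells to lymph nodes, had levels of 4.01 in KO and 1.91 in WT cells under SPF housing (log2 difference 2.10), against -0.54 in KO and 1.37 in WT cells under GF housing (log2 difference -1.91). Ccr10, which guides plasma cells to mucosae, differed by 1.90 under SPF housing. Ackr3, a scavenging receptor of CXCL12, was at least 1.52-fold lower in KO cells under SPF housing, and Ccr6, the receptor of CCL20, differed by -0.56. Under GF housing Cxcr4, the signalling receptor of CXCL12, had levels of 5.52 in KO and 6.82 in WT cells (log2 difference -1.30), while of the epithelial chemokines Ccl28 differed by 0.75 and Ccl20 was at least 1.40-fold higher in KO cells.

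Of the TNF superfamily ligands and receptors near lymphotoxin, 10 were measured under SPF housing, and their median difference was 0.63. In KO cells 2 were at least 2-fold higher, Tnfsf11 only on its measured values, and 0 lower, against 5.62% and 6.62% of all genes. Under GF housing 11 were measured, and the median was -0.95, against -0.20 for all genes. Here 1, Tnfrsf11b, was higher on its measured values and 5 were lower, against 8.81% and 7.78% of all genes. Tnf, whose product binds receptors shared with soluble lymphotoxin, had levels of 1.43 in KO and 2.93 in WT cells under GF housing (log2 difference -1.50). Tnfsf11, which encodes RANKL, a second inducer of the alternative pathway, was at least 1.99-fold higher in KO cells under SPF housing and at least 3.76-fold lower under GF housing. Tnfrsf17, the plasma cell receptor BCMA, differed by 1.76 under SPF housing. Tnfsf14, which encodes LIGHT, another ligand of the lymphotoxin beta receptor, differed by -0.27 under SPF and by -1.36 under GF housing. Its receptor Tnfrsf14 differed by 0.03 under both. Under GF housing Tnfrsf11b, the decoy receptor of RANKL, was at least 1.68-fold higher in KO cells and Tnfrsf11a, the RANKL receptor, differed by 0.23.

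The alternative NF-kappaB pathway, through which the lymphotoxin beta receptor acts, was measured with all 10 listed genes on every array. The list also holds Rela and Nfkb1, which encode subunits of the classical pathway. Rela differed by -0.05 under SPF and -0.48 under GF housing, and Nfkb1 by 0.43 and -0.54. Under SPF housing 1 was at least 2-fold higher and 0 lower in KO cells, against 5.62% and 6.62% of all genes, with a median difference of 0.56. Under GF housing 0 passed 2-fold in either direction, against 8.81% higher and 7.78% lower over all genes, with a median of -0.53. All 10 genes had levels above 0 on every array. Over all genes of brightness groups 3 and 4 the medians were -0.30 and -0.45 under GF housing, against -0.08 and -0.003 under SPF housing. Map3k14, the kinase NIK that starts the pathway, differed by 1.13 under SPF and -0.24 under GF housing. Birc3, a ligase that restrains NIK, differed by 0.92, the adaptor gene Traf2 by -0.49 and the kinase gene Chuk by -0.28 under SPF housing. Relb, the pathway's transcription factor, differed by -0.82, Birc2, another ligase of the pathway, by -0.60 and Chuk by -0.08 under GF housing.

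The oxysterol system guides lymphoid tissue inducer cells, B cells and dendritic cells through the receptor Gpr183. Under SPF housing 1 of its 4 measured genes was at least 2-fold higher and 2 were lower in KO cells, Cyp7b1 only on its measured values, against 5.62% and 6.62% of all genes. The median was -0.88, or -0.49 with the gene below background on 1 array at its bound. Gpr183 differed by 1.12, Hsd3b7, which breaks the ligand down, by -1.22, and Ch25h, which starts its synthesis, by -0.54, while Cyp7b1, which completes it, was at least 1.36-fold lower. Under GF housing 2 genes were measured, Gpr183 with -0.69 and Hsd3b7 with -0.63, which gives a median of -0.66 and 0 past 2-fold, against 8.81% higher and 7.78% lower over all genes.

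Of 10 genes of lymphoid stroma and adhesion, 9 were measured under SPF housing, with 0 at least 2-fold higher and 2 lower in KO cells, against 5.62% and 6.62% of all genes, and a median of -0.01, which became 0.26 with the median over a gene's probes. Under GF housing 10 were measured, with 1, Il7, higher on its measured values and 3 lower, against 8.81% and 7.78% of all genes. The median was -0.24, which became 0.05 in the deposited table. Enpp2, which encodes autotaxin of high endothelial venules, had levels of -1.88 in KO and -0.08 in WT cells under SPF housing (log2 difference -1.81), and Grem1, a BMP antagonist of stroma, differed by -1.05. The adhesion receptor gene Icam1 differed by 0.93 and Pdpn, a marker of reticular cells, by 0.73 there. Under GF housing Clu, expressed by follicular dendritic cells, differed by -1.64 and Icam1 by -1.14, Grem1 differed by 0.42, and Il7, a lymphocyte survival factor, was at least 1.94-fold higher in KO cells.

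**Figure D3:**
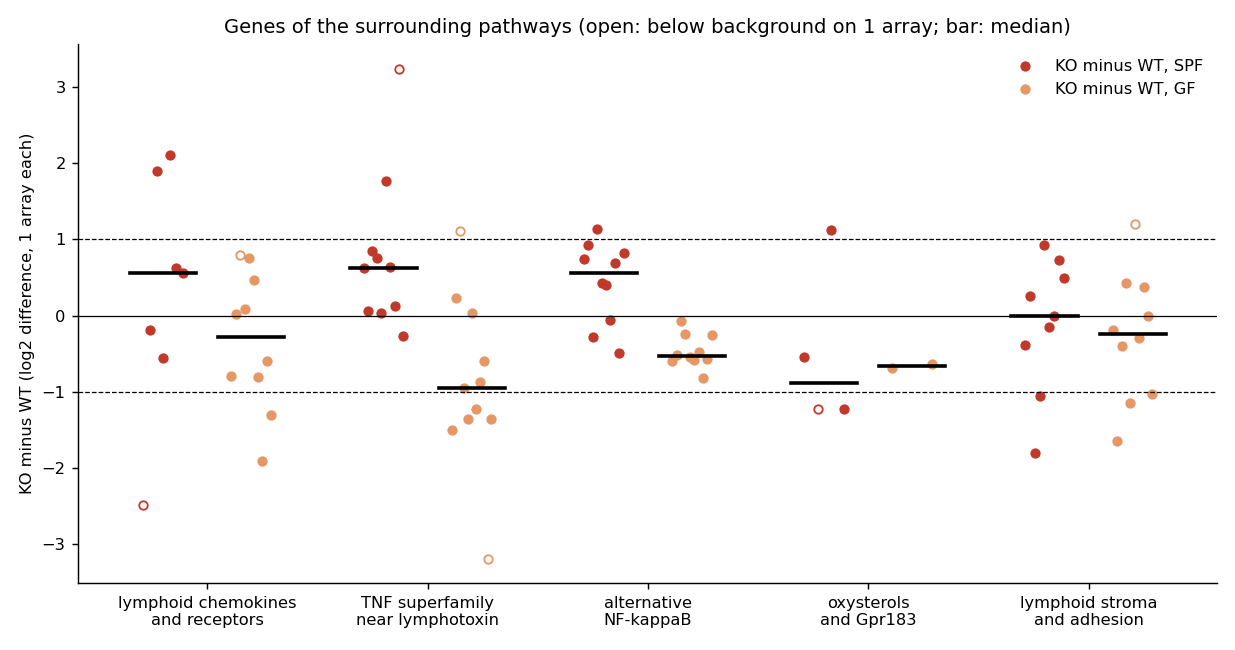
KO minus WT log2 difference (y axis, 1 array each) of each measured gene in 5 lists around the lymphotoxin circuit, with SPF in red left of GF in orange, black bars for list medians and open points for genes below background on 1 array. The medians of the TNF superfamily list (0.63 and -0.95) and of the alternative NF-kappaB list (0.56 and -0.53) lie above 0 under SPF and below 0 under GF housing. Not drawn are the GF medians of all genes in brightness groups 3 and 4, -0.30 and -0.45.

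Markers of the cells that make or answer these signals were read beside them, as the number above background and the summed linear level relative to the array's 75th percentile. Dendritic cell markers were above background for 11 of 11 genes on both SPF arrays and 10 of 11 on both GF arrays, where Xcr1, which marks cross-presenting dendritic cells, was not. Their sum was 807 in KO and 798 in WT cells under SPF housing, against 368 in KO and 598 in WT cells under GF housing. Macrophage and monocyte markers, 11 of 11 above background on each array, summed to 645 in KO and 728 in WT cells under SPF housing, against 339 in KO and 643 in WT cells under GF housing. Their part in the differences of Cxcl13, Ltb and the pathway lists was not tested.

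Of the lymphocytes that make lymphotoxin, T cell markers above background numbered 7 of 10 on the KO SPF, WT SPF and KO GF arrays and 8 of 10 on the WT GF array, with Trat1 below it on each. Their sum was 8.26 in KO and 5.11 in WT cells under SPF housing, against 7.71 in KO and 8.19 in WT cells under GF housing. B and plasma cell markers numbered 9 of 12 on both SPF arrays and 8 of 12 on both GF arrays, with Blk below background on each and Ms4a1, which encodes CD20, above it on the KO SPF array alone, as was Cxcr5. These summed to 116 in KO and 38.6 in WT cells under SPF housing, against 23.3 in KO and 18.0 in WT cells under GF housing. The SPF difference in this sum rests mostly on Jchain, with levels of 6.20 in KO and 3.99 in WT cells, and Pou2af1, with 4.28 and 1.95. The median KO minus WT difference of the list was 0.74 under SPF housing, or 0.42 with genes below background on 1 array at their bounds. It was 0.03 under GF housing. Markers of lymphoid tissue inducer and innate lymphoid cells numbered 6 of 10 on both SPF and 7 of 10 on both GF arrays, with sums of 32.8 in KO and 15.9 in WT cells under SPF housing, against 6.50 in KO and 11.2 in WT cells under GF housing. Ncr1, an activating receptor gene of innate lymphoid cells, was below background on all 4 arrays. Under SPF housing the sums of these 3 lists were higher in KO cells. Under GF housing the B and plasma cell sum was higher in KO cells and the other sums were lower. Ltb was lower in KO cells under both housings, and the part of these cells in its differences was not tested.

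Fibroblast markers, 10 of 10 above background on each array, summed to 13.7 in KO and 21.2 in WT cells under SPF housing, against 27.0 in KO and 26.1 in WT cells under GF housing, and their median difference was -0.72 under SPF and 0.09 under GF housing. Endothelial markers, also 10 of 10 on each array, summed to 7.34 in KO and 10.08 in WT cells under SPF housing, against 18.5 in KO and 26.1 in WT cells under GF housing. Fibroblast and endothelial sums and the brighter probe of Cxcl12 were each lower in KO than in WT cells under SPF housing, and the part of stromal RNA in that difference was not tested. Epithelial markers were above background for 10 of 10 genes on both GF arrays and 7 of 10 on both SPF arrays. They summed to 323 under GF and 3.79 under SPF housing in KO cells, and to 193 under GF and 3.11 under SPF housing in WT cells. Their median KO minus WT difference was 0.65 under GF housing, with 4 of 10 at least 2-fold higher and 0 lower, against 8.81% and 7.78% of all genes. It was 0.10 under SPF housing. The part of epithelial RNA in the housing differences and in the GF genotype differences was not tested.

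Likeness of pattern was measured over 12923 other genes above background on the 4 arrays, as the root mean square distance of the 4 levels after each gene was centred on its own mean. Closest to Cxcl13 were Ccl8 (distance 0.212), Tcstv3 (0.244), Cdk5rap1 (0.364), Ccl12 (0.393) and Retnlb (0.397). Ccl8 and Ccl12 encode chemokines that draw monocytes and other leukocytes, and Retnlb a goblet cell protein. Ccl8 had levels of 2.72 in KO and 5.52 in WT cells under SPF housing, against 3.75 in KO and 5.57 in WT cells under GF housing, and so differed by -2.80 and -1.82. Ccl12 differed by -2.01 under SPF and -0.58 under GF housing.

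Closest to Ltb were Esm1 (distance 0.132), Gbp6 (0.135), Cxcr3 (0.183), Gbp2 (0.235) and Ppp1r3d (0.236). Esm1 is a product of endothelial cells, Gbp2 and Gbp6 encode interferon-induced GTPases, and Cxcr3 is a chemokine receptor of activated lymphocytes. Cxcr3 had levels of -1.40 in KO and 0.14 in WT cells under SPF housing, against -1.54 in KO and -0.29 in WT cells under GF housing. Ltb itself ranked 21 in likeness to Cxcl13, at a distance of 0.527, since Cxcl13 was higher in KO GF than in KO SPF cells and Ltb was not. These distances rest on 4 arrays that share slides and scaling, and describe likeness on these arrays only.

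**Figure D4:**
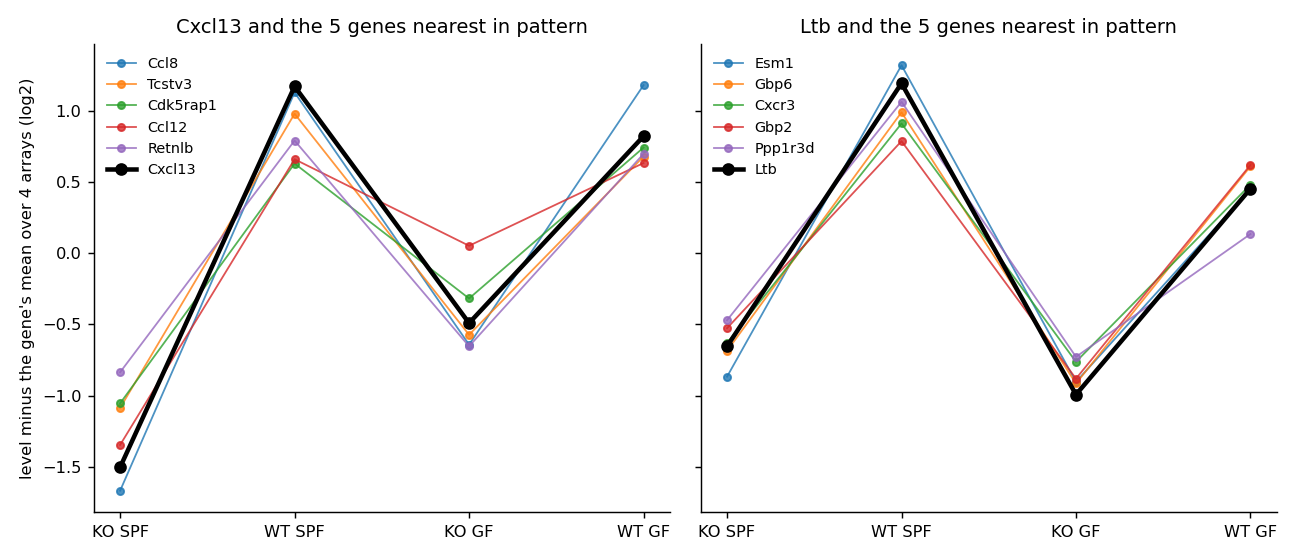
Level minus the gene's mean over the 4 arrays (y axis, log2) on the KO SPF, WT SPF, KO GF and WT GF arrays for Cxcl13 (left, black) and Ltb (right, black) with the 5 genes nearest to each in colour. Both sets are low on the KO arrays, and Cxcl13 is lowest on the KO SPF array while Ltb is lowest on the KO GF array.

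The genotype differences of Cxcl13 and Ltb kept their sign under the main setting and 9 alternatives in background correction, scaling, source of values, filters and choice of probe. The only probe of each gene was above background on every array. The filters on dim probes and the median over probes therefore could not change any difference of these genes, and their agreement carries no information. Each of these probes has 1 spot, used on every array. Keeping outlier-flagged spots could thus act only through the array's percentile, and its agreement carries little information. The Cxcl13 difference lay between -2.76 and -1.49 under SPF and between -1.44 and -0.84 under GF housing. That of Ltb lay between -1.93 and -1.12 under SPF and between -1.66 and -0.71 under GF housing. Counting all of those settings, both were at least 2-fold lower under SPF housing in 10 of 10 settings and under GF housing in 9 of 10. The exception was normexp background correction.

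**Figure D5:**
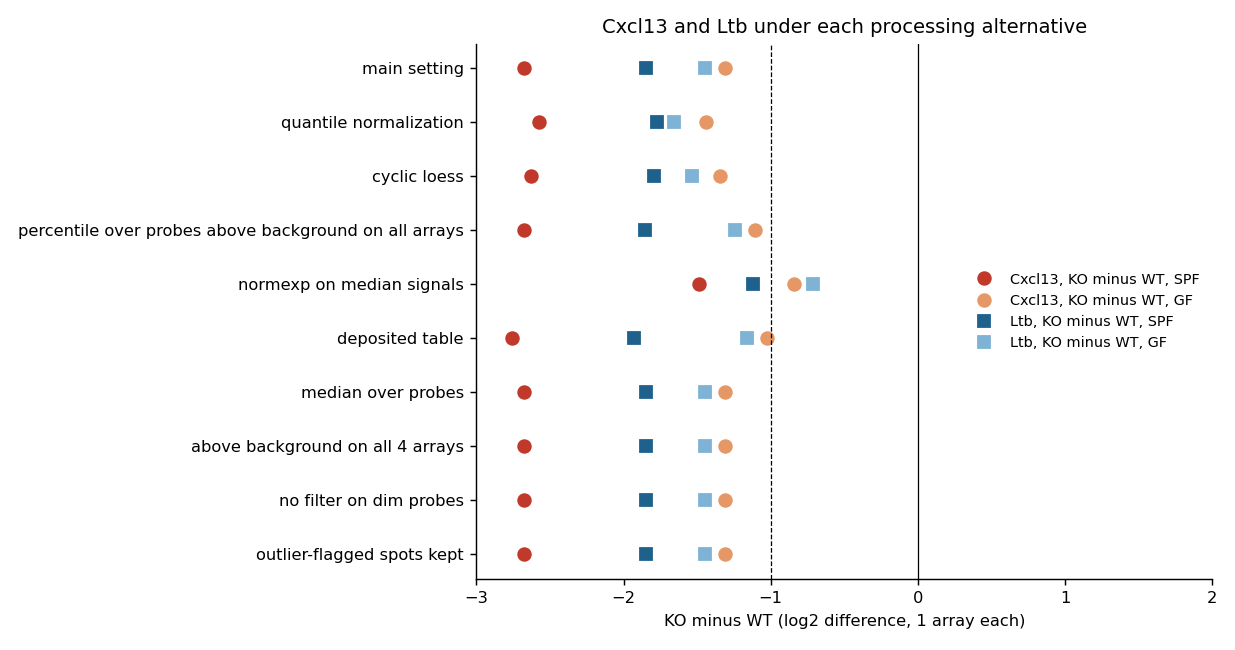
KO minus WT log2 difference (x axis, 1 array each) of Cxcl13 (circles) and Ltb (squares), SPF in dark and GF in light colours, under the main setting and 9 alternatives listed down the page, with a dashed line at 2-fold. All points lie below 0, and with normexp the GF points (-0.84 for Cxcl13 and -0.71 for Ltb) lie short of 2-fold.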

How the data were processed

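Sorted colonic dendritic cells of 4 groups were read on 1 array each. Per the file headers, the intensity of each spot was read with Agilent Feature Extraction 10.10.1.1 (protocol GE1_1010_Sep10, design build mm9), which subtracts background and leaves arrays unscaled. The intensity values in the authors' series table are linear, with genes not centred, and equal these times a constant per array, 8.24 (KO SPF), 8.30 (WT SPF), 7.96 (KO GF) and 7.08 (WT GF); its column medians were 216.3, 237.2, 331.4 and 235.7 in that order. The rule behind the constants is unknown.

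From the intensities, log2 minus the array's 75th percentile was computed here with Python 3.11.15, numpy 2.4.6 and pandas 2.3.3. Of 59305 spots that were not controls, those flagged as outliers (144 to 215 per array) were left out, spots of a probe were averaged, and 84 probes with no spot left on an array were dropped, as were 3671 control spots. Accessions were matched to RefSeq; of 55597 probes, 27191 had 1 gene and 28406 none here, 19 of them because both slides' files disagreed. For 5463 genes with several probes, the probe with the highest mean stood for the gene. A gene entered a comparison if either array of the pair had it above background, and 2-fold counted as different. Counts and list medians use measured values also where 1 array is below background; for a named gene, "at least" gives the brighter level over the higher of the dim probe's own value and the dim array's lowest signal called above background. Arithmetic was tested on simulated data. Normexp (offset 50), quantile and cyclic loess alternatives used limma 3.58.1 in R 4.3.3; figures used matplotlib 3.10.9. The number of arrays limits the precision.

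The members and lists were chosen with earlier results of these data known. Of 135 genes on 13 lists, 129 were matched. Genes named beside the members are, of each pathway list, the 2 highest and 2 lowest of each genotype comparison, of each cell type list markers below background (some are not reported here), the label checks, and the 5 genes nearest in pattern to Cxcl13 and to Ltb.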

Additional observations from a re-analysis of the deposited data

Results flagged for a closer look

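Some genes and lists had a KO minus WT difference of one sign under SPF and the other under GF housing. With 1 array per group none of these contrasts between housings was tested. The SPF difference minus the GF difference was -2.44 for the middle Ccl19 probe, -0.78 for the brightest Ccl19 probe and -0.89 for the dimmer Cxcl12 probe. It was 4.01 for Ccr7 and 2.98 for Tnfrsf17. For list medians it was 0.84 for lymphoid chemokines and their receptors, 1.58 for the TNF superfamily list, 1.09 for the alternative NF-kappaB pathway, 0.73 for lymphoid tissue inducer and innate lymphoid cells, -0.81 for fibroblasts and 0.79 for dendritic cells. The GF median of all genes was 0.25 in the dimmest and -0.45 in the brightest group. The part of brightness in these changes of sign was not tested. The dendritic cell median under SPF housing was 0.05 and below 0 with quantile normalization (-0.02) and in the deposited table (-0.03), so its change of sign depends on scaling. Cxcl13 was higher under GF than under SPF housing in KO cells and lower in WT cells, and the GF minus SPF difference in KO cells minus that in WT cells was 1.36, also not tested.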

How the results depend on the processing

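No result of those recomputed for the members, counts and lists that had passed 2-fold changed sign under an alternative; 89 of the 108 main recomputed values and 756 of the 788 others stayed close to the reported ones. With normexp, which used median spot signals since the files hold no mean, Cxcl13 differed by -1.49 under SPF housing, Ltb by -1.12 under SPF and -0.71 under GF housing, and no member was 2-fold higher under SPF (0) or lower under GF housing (0); the genes 2-fold lower and higher in KO cells numbered 92 and 179 under SPF and 353 and 287 under GF housing. Above background on all 4 arrays, which leaves fewer genes, 0 members were 2-fold higher under SPF housing, and 342 genes were lower and 447 higher under SPF, 815 lower and 527 higher under GF housing. With no filter on dim probes 1502 were lower and 1430 higher under SPF housing. Under GF housing 706 were lower with the percentile taken over probes above background on all arrays, and with the deposited values 574 were lower and 2300 higher, against 1224 and 1386 here; the median over all genes moved from -0.20 to 0.00 and 0.09 under these scalings. Between GF and SPF housing, normexp left 1211 genes higher and 1256 lower in KO cells and 999 and 442 in WT cells, the filter on all 4 arrays left 1787 genes higher in KO cells and 1519 higher and 883 lower in WT cells, and the deposited values left 1503 lower in KO cells, against 3375 and 2403 in KO and 2740 and 1481 in WT cells here. Apart from the constructions named, the cause was not tested. No paired analysis was possible because the groups share 1 replicate number only, with 1 array each. Each KO and WT pair shares a slide, and KO minus WT averaged over both slides was -1.99 for Cxcl13 and -1.65 for Ltb; a fit with slide as a block was not run, since its only residual is the contrast between the housings and not a spread between replicates. Between housings no block is possible, since each slide holds 1 housing. Probes near background, here Cxcr5, Lta and the dimmest Ccl19 probe, give bounds only.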
